A study of Danio rerio with 6 samples.

Results

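The genes described here encode the proteins that the liver secretes into blood: fibrinogen and the other clotting factors, complement components, protease inhibitors, and carriers and other secreted proteins. A list of 60 zebrafish symbols was matched to the rows of the deposited count table by gene ID, and 46 were found among the 6502 rows with an ID. By role these were 12 coagulation and fibrinolysis genes, 15 complement genes, 11 protease inhibitors and 8 carriers and other proteins. The listed genes *f9a*, *f9b*, *kng1*, *hrg*, *fn1a*, *c3b.2*, *c6*, *c7a*, *cfd*, *serpinc1*, *a2ml*, *serpina7*, *crp* and *hgfa* had no matching row and were not analysed here. One listed gene, *a1cf*, encodes an RNA-binding protein of apolipoprotein B mRNA editing in mammals and is not itself a plasma protein.

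Hepatocytes make most plasma proteins, and their mRNAs are among the most abundant in liver. Clotting factors circulate as inactive precursors that activate each other in sequence until thrombin converts fibrinogen to fibrin, which plasmin later dissolves. Complement runs through a similar sequence of cleavages that converges on C3 and ends in a pore of C8, C9 and other terminal components in a target membrane. Serpins and inter-alpha-trypsin inhibitors hold these proteases in check, while carriers transport retinol, thyroid hormone and vitamin D.

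Keap1 holds the transcription factor Nrf2 in check, and RNA of dissected larval livers was compared between WT and Keap1-deficient zebrafish at 7 days post fertilization (dpf). The cr*keap1a/b* larvae are crispants, injected with CRISPR/Cas9 as one-cell embryos against the Keap1 paralogs *keap1a* and *keap1b*, so the knockout is mosaic. Each group had 3 pools of 15 livers, numbered by the sample titles, and whether WT embryos received a control injection is not given in the sources used here. The labels also give each pool a code of a number and a letter. The codes are 2-a, 1-a and 2-b for WT 1 to 3, and 1-a, 2-a and 2-b for cr*keap1a/b* 1 to 3. Replicate 3 of both groups thus carries the letter b where the other 4 pools carry the letter a. What the number and the letter stand for is not stated. Nor is it stated how pools of a group with the same number relate to each other, and the SD values below count each pool as separate. Levels of *keap1a* were 39.3, 0 and 22.1 in WT 1 to 3 and 26.1, 24.4 and 0 in cr*keap1a/b* 1 to 3, and those of *keap1b* were 32.9, 32 and 0.58 against 43.9, 24.6 and 0, all in TMM-scaled CPM, the counts of a gene relative to the scaled total of its pool. A 3′ tag count does not show whether a gene was edited, so these levels check no label.

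Totals over rows with an ID lay between 9491003 and 15030262 counts, and 3 counts, taken as the smallest level that could be shown, corresponded to 0.175 to 0.367 CPM. The letter b pools stood apart: 53.2% of rows were at 0 in WT 3 and 47.6% in cr*keap1a/b* 3, against 2.83 to 13.1% in the other 4. The plasma protein genes were mostly well above this floor, since 42 of the 46 had a mean of at least 100 CPM and 42 were above 0 in all 6 pools. In the weighted test the letter b pool held a median of 47.8% of the WT weight over the 46 genes and 38.1% of the cr*keap1a/b* weight. Results are therefore given for all 6 pools and for the 4 letter a pools. Values in each group are listed for replicates 1, 2 and 3 in that order. Because the QuantSeq 3′ libraries give about one tag per transcript, CPM was not divided by gene length.

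The share of liver RNA held by the plasma protein genes overlapped between the groups over all 6 pools and not within letter a. The 46 genes took 5.23, 6.03 and 4.55% of counts in WT 1, 2 and 3 and 4.92, 5.14 and 4.63% in cr*keap1a/b* 1, 2 and 3. Over all pools every cr*keap1a/b* value lay inside the WT range. The means were 5.27% ± 0.742 in WT pools and 4.89% ± 0.258 in crispants (SD, n = 3), a difference of -0.37 percentage points that was smaller than the WT spread and was not tested. Within letter a the means were 5.63% ± 0.564 and 5.03% ± 0.158 (SD, n = 2), both crispant pools lay below both WT pools, and the difference was -0.60 percentage points, larger than either spread. The single gene *rbp4* encodes the plasma carrier of retinol. It took 1.63, 1.77 and 0.588% of counts in WT pools and 1.19, 0.976 and 0.534% in crispants. Without it the means over all pools were 3.94% ± 0.327 in WT and 3.99% ± 0.235 in crispants (SD, n = 3). Within letter a they were then 3.93% ± 0.462 and 3.95% ± 0.310 (SD, n = 2), a difference of 0.01 percentage points. These shares are of unscaled counts, and the near equality without *rbp4* holds for that scale only. In TMM-scaled CPM the 46 genes, *rbp4* included, summed to 64725, 70051 and 39831 in WT pools. The crispant sums were 52870, 51212 and 34381, lower within each letter, and a sum without *rbp4* was not made on that scale. As shares, the -0.60 percentage points within letter a, *rbp4* included, sum opposite moves of the role groups. Carriers and other proteins, *rbp4* included, differed by -0.80 percentage points and protease inhibitors by -0.15. Complement genes differed by 0.21 and coagulation genes by 0.14. In TMM-scaled CPM coagulation genes summed to 11414 and 12445 in WT 1 and 2 and 10969 and 12467 in cr*keap1a/b* 1 and 2. Complement genes summed to 8885 and 10066 against 9405 and 11166 in the same pools. On that scale the letter a groups thus overlapped for both roles. For comparison, *apoa1b*, encoding the main protein of high-density lipoprotein, alone took the largest share of counts in every pool.

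The makeup of the share differed by role. Carriers and other proteins took 2.54, 2.83 and 1.31% of counts in WT pools and 1.98, 1.80 and 1.18% in crispants, so that within each letter the cr*keap1a/b* pools were the lower ones. Complement genes took 0.718, 0.866 and 0.986% in WT pools and 0.875, 1.12 and 1.32% in crispants, with means of 0.857% ± 0.134 and 1.11% ± 0.225; the groups overlapped, and the difference was 0.206 percentage points within letter a and 0.337 within letter b. Coagulation genes took 0.922, 1.07 and 1.23% against 1.02, 1.25 and 1.12%. Protease inhibitors took 1.05, 1.26 and 1.01% against 1.04, 0.971 and 1.0%. Here too the crispant pools were the lower ones within each letter, with both ranges close together.

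**Figure D1:**
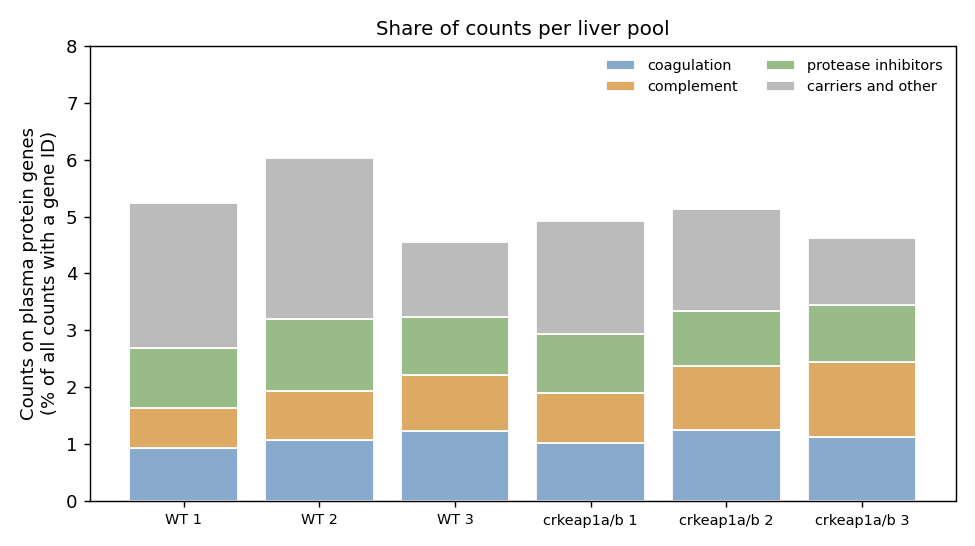
Share of counts taken by the 46 plasma protein genes in each liver pool, in percent of all counts on rows with a gene ID, with the 4 role groups stacked. The totals lie between 4.55 and 6.03%. The carriers and other proteins, of which *rbp4* is the largest single gene in every pool, range from 2.83% in WT 2 to 1.18% in cr*keap1a/b* 3.

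Few plasma protein genes passed the test between the groups. By limma-voom with adjustment over all 6386 tested genes, *lect2.1* was higher and *leg1.1* was lower in cr*keap1a/b* livers, and the other 44 did not pass. Of all genes tested, 38 (0.595%) passed as higher and 38 (0.595%) as lower. Among the 770 tested genes with a mean of at least 100 CPM, 27 passed as higher and 37 as lower. The 1 gene in each direction among 46 is too few to be set apart from these shares. Log2 fold changes were positive for 22 genes and negative for 24, with a median of -0.08, beside medians of 0.36 over all tested genes and -0.10 over the 770 tested genes with a mean of at least 100 CPM. In 3 genes, *cfi*, *ambp* and *lect2.1*, every cr*keap1a/b* pool lay above every WT pool, while 8.39% of all tested genes did. In 7 genes, *f5*, *f10*, *plg*, *serping1*, *ahsg2*, *leg1.1* and *leg1.2*, every cr*keap1a/b* pool lay below every WT pool, against 5% of all tested genes. Most of the 46 are abundant, and among the 770 tested genes with a mean of at least 100 CPM, 125 (16.2%) lay wholly higher and 114 (14.8%) wholly lower. The 3 among 46 lie below the first share, and the 7 among 46 lie close to the second.

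Within the 4 letter a pools more genes passed. Limma-voom then called *c4b*, *cfhl4* and *lect2.1* higher, where 2.31% of 6456 tested genes were higher, and *vtna*, *ahsg2*, *rbp4*, *ttr*, *leg1.1* and *leg1.2* lower, where 2.15% were lower. Among the 770 abundant genes 112 (14.5%) were higher and 108 (14%) lower in the same fit, so these counts are not above those of abundant genes. The edgeR quasi-likelihood test in the same 4 pools called *ahsg2* and *lect2.1*. With all 6 pools that test called none of the 46, with 4 at an unadjusted p under 0.05. Over all 6386 tested genes it called 16 higher and 6 lower, with 253 at an unadjusted p under 0.05. The samples are bulk livers, in which fewer cells of a type and less RNA per cell cannot be told apart.

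**Figure D2:**
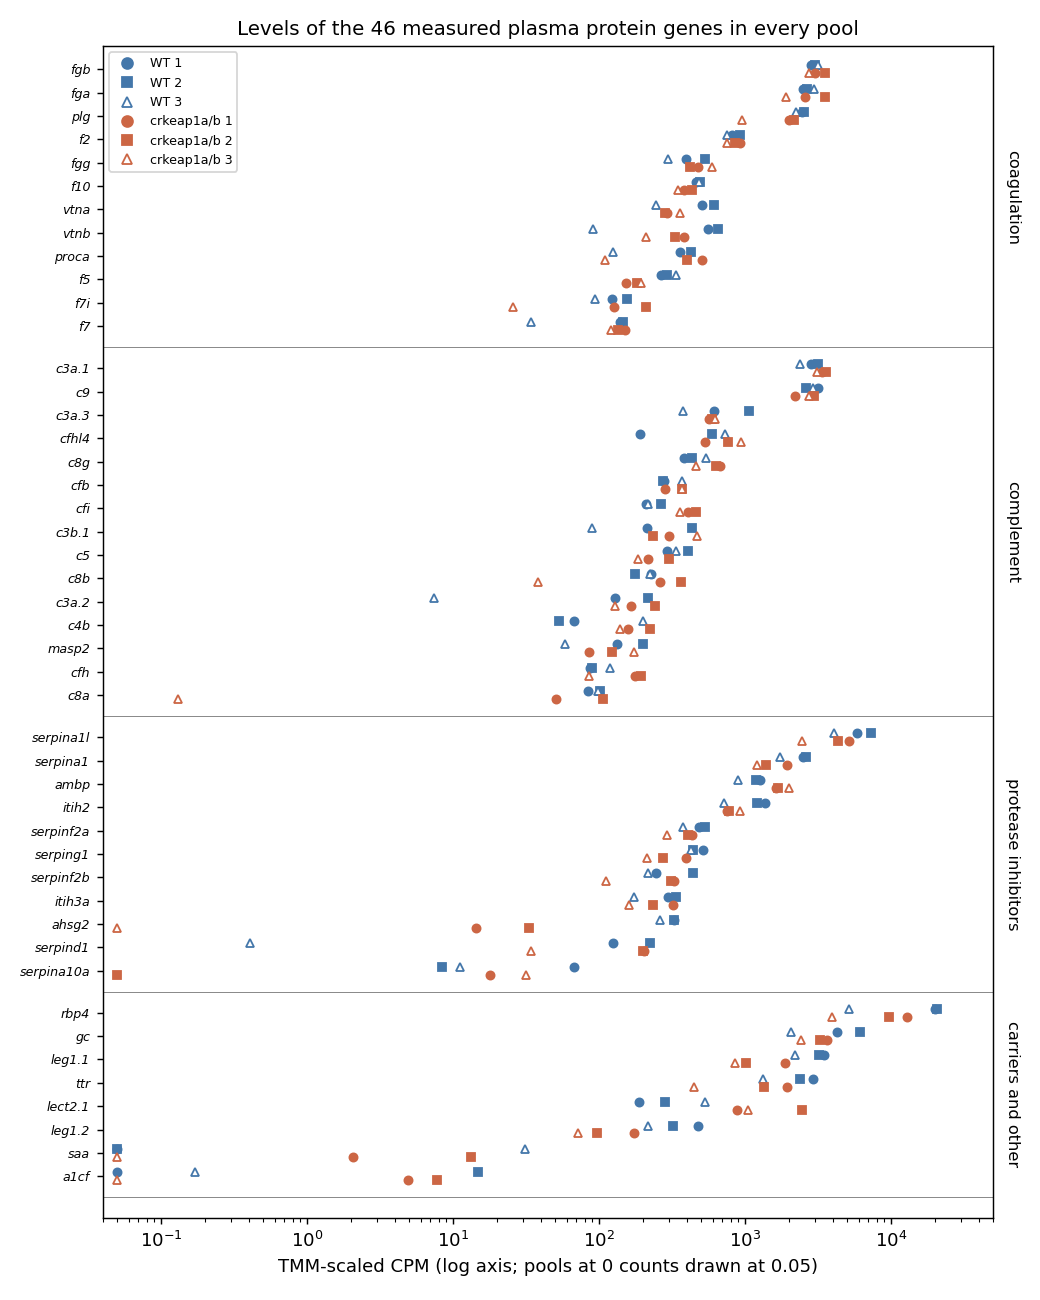
TMM-scaled CPM of each of the 46 genes in every pool, on a log axis, in the 4 role groups and ordered by mean; filled symbols are letter a pools, open triangles letter b pools, blue WT and orange cr*keap1a/b*, and pools at 0 counts are drawn at 0.05. The symbols of *fgb*, *f2* and *c9* lie close together, whereas single letter b pools lie far to the left for *c3a.2*, *c8a* and *serpind1*.

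No coagulation gene passed the test with all 6 pools. Of the 12, 6 had positive and 6 negative log2 fold changes, and the median was -0.06. The fibrinogen chains were the most abundant, *fgb* and *fga* encoding the beta and alpha chains and *fgg* the gamma chain. Levels of *fgb* were 2823, 2996 and 3163 CPM in WT 1, 2 and 3, against 3012, 3536 and 2749 CPM in crispant pools 1, 2 and 3. Its groups overlapped over all 6 pools, and the log2 fold change of 0.01 had a 95% interval of -0.29 to 0.30, which leaves room for changes of about that size. In letter a both crispant pools lay above both WT pools for *fgb*, with a log2 fold change of 0.19 (adjusted p = 0.672 by limma-voom). Levels of *fga* were 2512, 2663 and 2945 CPM in WT pools and 2578, 3507 and 1898 CPM in crispants, again overlapping, with a log2 fold change of -0.14 (95% interval -0.48 to 0.21) that was 0.24 within letter a.

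Transcripts of the fibrinogen alpha and beta chains were recovered at similar counts, and those of the gamma chain at lower counts. The ratio of *fga* to *fgb* counts was 0.890, 0.889 and 0.931 in WT pools and 0.856, 0.992 and 0.691 in crispants. The ratio of *fgg* to *fgb* was 0.139, 0.179 and 0.0933 in WT pools and 0.158, 0.118 and 0.215 in crispants. Both ratios overlapped between groups, and the extremes were letter b pools except for the highest *fga* to *fgb* ratio, in cr*keap1a/b* 2. In the RefSeq gene order *fgb* and *fga* have 1 protein-coding gene between them.

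Plasminogen, the precursor of plasmin encoded by *plg*, was lower in every cr*keap1a/b* pool without passing the test. Its levels were 2462, 2546 and 2235 CPM in WT pools and 1991, 2170 and 949 CPM in crispants. The letter b crispant pool lay far below the other 2 of its group. Its log2 fold change was -0.62 ± 0.21 (SE; 95% interval -1.04 to -0.21; adjusted p = 0.163 by limma-voom), and within letter a it was -0.25 (adjusted p = 0.621).

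The same lack of overlap was seen in the prothrombinase pair, factor V (*f5*), the cofactor, and factor X (*f10*), the protease. Factor V levels were 266, 294 and 335 CPM in WT pools and 153, 182 and 193 CPM in crispants. The means were 298 ± 35.1 and 176 ± 20.8 (SD, n = 3), and the fitted difference of -0.78 ± 0.52 (SE, log2) did not pass (adjusted p = 0.755 by limma-voom). Both *f5* and *f10* were named after their lack of overlap was seen, so that separation is no further evidence of a difference. Factor X levels were 460, 492 and 480 CPM in WT pools and 384, 431 and 350 CPM in crispants (log2 fold change -0.31, adjusted p = 0.980 by limma-voom). Both groups were tight for these genes, with coefficients of variation between 3.41 and 11.8%.

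Prothrombin (*f2*), the precursor of thrombin, lay between 747 and 930 CPM in all 6 pools, with a log2 fold change of 0.04. Factor VII (*f7*), which starts clotting together with tissue factor, was at 140, 145 and 34.2 CPM in WT pools and 151, 136 and 120 CPM in crispants. Only the letter b WT pool stood apart, and the log2 fold change was 0.93 with all pools (adjusted p = 0.816 by limma-voom) and 0.03 within letter a. Protein C (*proca*), whose activated form inactivates factor V, was at 356, 423 and 126 CPM in WT pools and 505, 400 and 109 CPM in crispants, with both letter b pools low. Vitronectin, an adhesive plasma glycoprotein, is encoded by *vtna* and *vtnb*, and *vtna* was at 507, 612 and 244 CPM in WT pools and 291, 283 and 356 CPM in crispants. The *vtna* levels overlapped over all pools (log2 fold change -0.28), while within letter a it fell by 0.93 on the log2 scale (adjusted p = 0.0349 by limma-voom). In the same pools edgeR did not call *vtna* (adjusted p = 0.156).

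**Figure D3:**
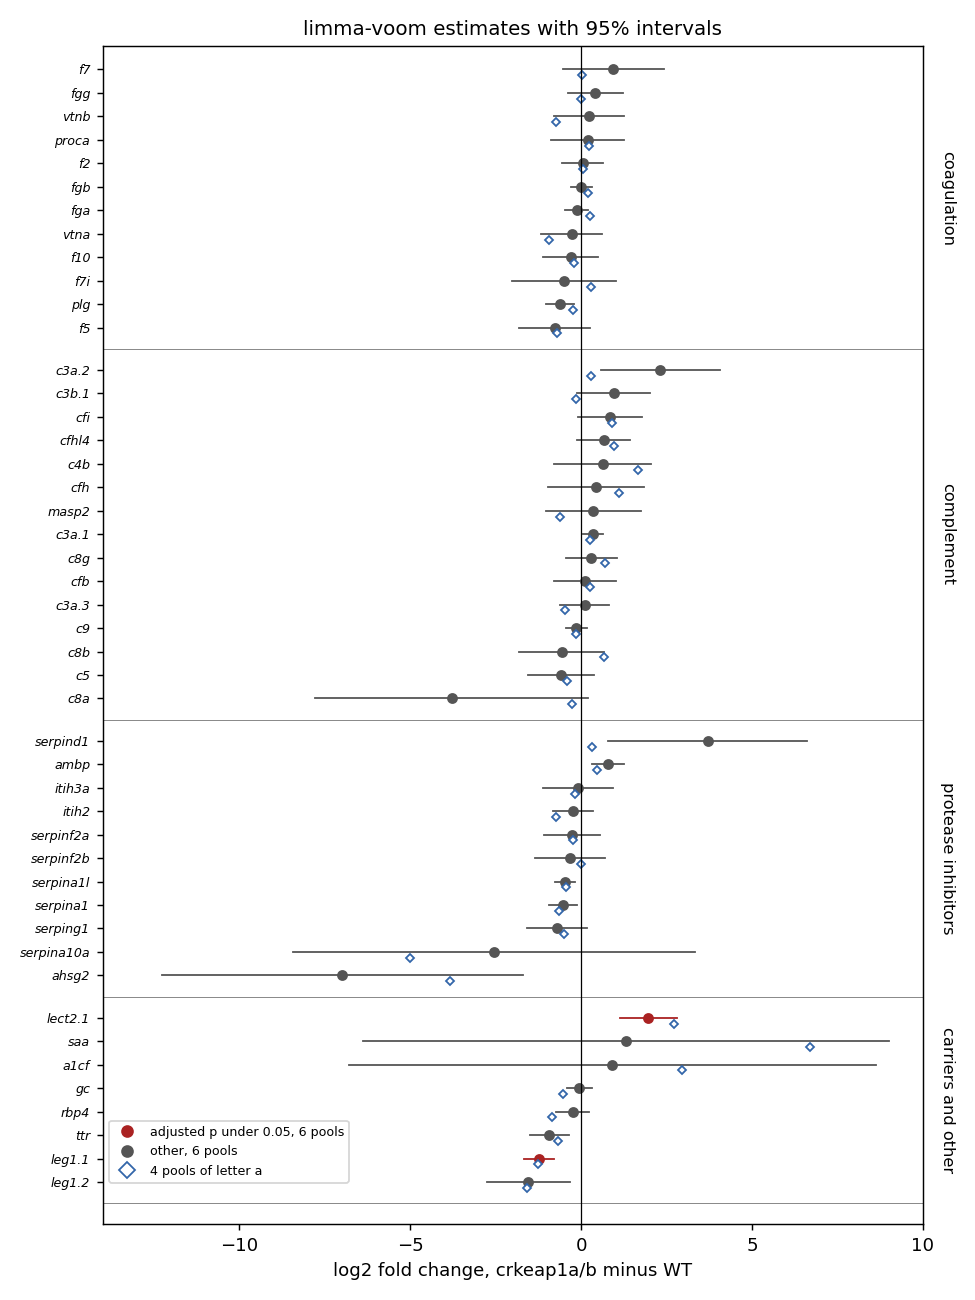
Log2 fold change of each gene, cr*keap1a/b* minus WT, from limma-voom on all 6 pools (circles, bars for the 95% interval) and on the 4 letter a pools (open diamonds). The 2 red circles, *lect2.1* at 1.96 and *leg1.1* at -1.24, are the genes past an adjusted p of 0.05 with 6 pools, and the diamonds lie away from the circles for *saa*, *c8a*, *serpind1*, *ahsg2*, *serpina10a*, *c3a.2* and *a1cf*, which have 1 or more pools at 0 or far below the others.

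More complement genes had positive than negative fold changes, but none of the 15 passed the test with all 6 pools. The fold change was positive for 11 and negative for 4, with a median of 0.34 on the log2 scale. This was close to the median of 0.36 over all tested genes and above the -0.10 of the abundant ones. By limma-voom 2 of the 15 had an unadjusted p under 0.05, as did 486 of the 6386 tested genes and 236 of the 770 abundant ones. Within letter a 9 fold changes were positive and 6 negative, with a median of 0.26. The letter a medians were 0.21 over all tested genes and -0.03 over the abundant ones. C3 is the component on which all complement pathways converge, and *c3a.1* was its most abundant paralog. Levels of *c3a.1* were 2826, 3136 and 2369 CPM in WT pools and 3342, 3605 and 3124 CPM in crispants. Only WT 2 reached into the crispant range, above cr*keap1a/b* 3 alone. The log2 fold change was 0.34 ± 0.15 (SE; 95% interval 0.04 to 0.64; adjusted p = 0.494 by limma-voom).

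The other C3 paralogs were lower in level and more uneven. Levels of *c3a.3* were 615, 1073 and 373 CPM in WT pools and 565, 590 and 627 CPM in crispants, so the crispant pools lay inside the WT range. Its log2 fold change was 0.11 with all pools and -0.46 within letter a, neither past the threshold. Levels of *c3a.2* were 129, 216 and 7.4 CPM in WT pools and 165, 240 and 128 CPM in crispants. The log2 fold change of 2.32 (adjusted p = 0.289 by limma-voom) was 0.30 within letter a, without the low WT 3; it was called under 1 of 17 alternatives, without cr*keap1a/b* 3 (adjusted p = 0.00862, in a range up to 1). In the RefSeq gene order *c3a.2* and *c3a.3* are neighbours, and reads of such related copies can be split between them, so the level of each is uncertain.

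Components of the terminal pore showed no common direction. Levels of *c9*, whose product lines the pore, were 3160, 2613 and 2904 CPM in WT pools and 2186, 2948 and 2728 CPM in crispants. The groups overlapped, with a log2 fold change of -0.14 (95% interval -0.46 to 0.17). C8 joins an alpha, a beta and a gamma chain, and *c8a*, for the alpha chain, was at 84.0, 102 and 98.5 CPM in WT pools and 51.0, 107 and 0.13 CPM in crispants. The last value stands for 2 counts, and the log2 fold change of -3.79 (adjusted p = 0.682 by limma-voom) was -0.28 within letter a. In that pool *c8b*, for the beta chain and a neighbour of *c8a* in the gene order, was also low. Its levels were 225, 175 and 224 CPM in WT pools and 262, 366 and 38.5 CPM in crispants. The gamma chain gene *c8g* was at 380, 436 and 542 CPM in WT pools and 675, 633 and 464 CPM in crispants. In letter a both crispant pools lay above both WT pools for *c8b* and *c8g*. Their log2 fold changes there were 0.66 and 0.70 (adjusted p = 0.364 and 0.166 by limma-voom).

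Among the regulators of complement, factor I had levels that did not overlap. Factor I (*cfi*), a protease that inactivates C3b, was at 208, 265 and 216 CPM in WT pools and 404, 463 and 356 CPM in crispants. All crispant pools were above all WT pools, with means of 408 ± 53.4 against 230 ± 30.7 (SD, n = 3), a 1.78-fold difference. Limma-voom did not call *cfi* (log2 fold change 0.84 ± 0.47 SE, adjusted p = 0.72). In letter a its log2 fold change was 0.91 (adjusted p = 0.0649 by limma-voom, 0.228 by edgeR). The factor H-like gene *cfhl4* was at 191, 595 and 730 CPM in WT pools and 536, 767 and 945 CPM in crispants, with the lowest value in WT 1 and the highest in cr*keap1a/b* 3, and the groups overlapped within letter a as well. Within letter a *cfhl4* rose by 0.97 on the log2 scale (adjusted p = 0.0189 by limma-voom). In the same pools it was not called by edgeR (adjusted p = 0.775). Factor H (*cfh*), a cofactor of factor I and a neighbour of *cfhl4* in the gene order, was at 86.2, 89.9 and 119 CPM in WT pools and 177, 193 and 85.3 CPM in crispants. The letter b pools reversed the order of the letter a pools for *cfh*. C4 (*c4b*), of the classical and lectin pathways, behaved likewise, at 67.0, 53.1 and 201 CPM in WT pools and 159, 224 and 139 CPM in crispants. Within letter a *c4b* rose by 1.68 on the log2 scale (adjusted p = 0.00465 by limma-voom), which edgeR did not call (adjusted p = 0.0754).

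Most protease inhibitors had negative fold changes. None of the 11 passed the test with all 6 pools. Of their fold changes 9 were negative and 2 positive, with a median of -0.32, and 5 had an unadjusted p under 0.05 by limma-voom. Those 5 were *serpina1l*, *serpina1* and *ahsg2*, with negative fold changes, and both genes with positive ones, *ambp* and *serpind1*. Such a p was found for 486 of the 6386 tested genes and for 236 of the 770 abundant ones. The 770 had 353 positive and 417 negative fold changes, with a median of -0.10. The most abundant were *serpina1l* and *serpina1*, related copies of the gene for alpha-1-antitrypsin, the main plasma inhibitor of neutrophil elastase. Levels of *serpina1l* were 5834, 7264 and 4091 CPM in WT pools and 5142, 4362 and 2444 CPM in crispants. Levels of *serpina1* were 2511, 2633 and 1725 CPM in WT pools and 1924, 1390 and 1204 CPM in crispants. For both copies WT 3 lay within the crispant range, and within each letter the crispant pools were lower. The log2 fold changes were -0.47 ± 0.15 for *serpina1l* (adjusted p = 0.118 by limma-voom) and -0.54 ± 0.21 for *serpina1* (adjusted p = 0.317 by limma-voom), with SE. The ratio of *serpina1l* to *serpina1* counts was 2.32, 2.76 and 2.37 in WT pools and 2.67, 3.14 and 2.03 in crispants; the copies are neighbours in the gene order, and how the counting divided reads between them is uncertain.

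The gene *ambp* was 1 of the 2 inhibitors with a positive fold change. It encodes a precursor cleaved into alpha-1-microglobulin, a heme-binding protein, and bikunin, the inhibitory chain of the inter-alpha-trypsin inhibitors. Its levels were 1271, 1190 and 893 CPM in WT pools and 1639, 1693 and 2015 CPM in crispants. Every crispant pool was above every WT pool, with means of 1118 ± 199 and 1782 ± 203 (SD, n = 3), a 1.59-fold difference. Its log2 fold change was 0.77 ± 0.23 (SE; 95% interval 0.31 to 1.24), short of the threshold (adjusted p = 0.0899 by limma-voom), and 0.46 within letter a (adjusted p = 0.401). The heavy chains that bikunin joins did not pass in either direction: *itih2* was at 1367, 1211 and 720 CPM in WT pools and 758, 772 and 926 CPM in crispants, and *itih3a* had a log2 fold change of -0.10. In letter a both crispant pools of *itih2* lay below both WT pools. Its log2 fold change there was -0.73 (adjusted p = 0.0671 by limma-voom, 0.232 by edgeR).

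The largest ratio between group means among the 46 genes was that of *ahsg2*, a gene of the fetuin-A family of mineral-binding plasma proteins. Its counts were 3106, 2657 and 4489 in WT pools and 160, 419 and 0 in crispants, or 325, 325 and 262 CPM against 14.4, 33.3 and 0 CPM. The groups were far apart, with means of 304 ± 36.7 and 15.9 ± 16.7 CPM (SD, n = 3), a 19.1-fold lower mean in cr*keap1a/b*. With all 6 pools limma-voom did not call *ahsg2* (log2 fold change -6.99 ± 2.65 SE, adjusted p = 0.290), whereas limma-trend, which gives all pools equal weight, did (adjusted p = 0.0288). Without the pool at 0, in the letter a pools, it fell by 3.84 on the log2 scale (adjusted p = 5.29e-10 by limma-voom and 0.0057 by edgeR). Over 17 alternatives *ahsg2* was called in 4, with adjusted p between 5.29e-10 and 1.

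Among the other inhibitors, C1 inhibitor (*serping1*), which restrains the first step of the classical complement pathway, was at 512, 439 and 423 CPM in WT pools and 395, 274 and 212 CPM in crispants. These groups did not overlap, but the log2 fold change of -0.70 ± 0.44 (SE) did not pass (adjusted p = 0.741 by limma-voom). Heparin cofactor II (*serpind1*), an inhibitor of thrombin, was at 124, 224 and 0.41 CPM in WT pools and 204, 200 and 34.2 CPM in crispants, so its fitted log2 fold change of 3.71 (adjusted p = 0.335 by limma-voom) came with WT 3 near 0 and was 0.32 within letter a. Alpha-2-antiplasmin, the inhibitor of plasmin, is encoded by *serpinf2a* and *serpinf2b*, whose log2 fold changes were -0.26 and -0.32, and *serpina10a* did not exceed 67.0 CPM and at 0 in cr*keap1a/b* 2.

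Carriers and other secreted proteins held both genes that passed the test. The first, *lect2.1*, encodes a chemotaxin that in mammals is secreted by hepatocytes and attracts neutrophils. Its counts were 1784, 2325 and 9057 in WT pools and 9786, 30651 and 15688 in crispants. On the CPM scale these were 187, 285 and 528 against 879, 2438 and 1044, so every crispant pool was above every WT pool and also above the WT pool of its own letter. The means were 333 ± 176 and 1454 ± 857 CPM (SD, n = 3), a 4.36-fold difference, and *lect2.1* rose by 1.96 ± 0.42 on the log2 scale (SE; 95% interval 1.12 to 2.80; adjusted p = 0.00222 by limma-voom). Within letter a the log2 fold change was 2.72 (adjusted p = 6.19e-19 by limma-voom and 0.0211 by edgeR).

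The call for *lect2.1* depended on the scaling, the tool and single pools. Over all 6 pools DESeq2 and limma-trend called it (adjusted p = 0.00577 and 0.0155), whereas edgeR did not (adjusted p = 0.0584). With RLE factors in place of TMM it was not called (adjusted p = 0.161 by limma-voom), nor when rows without an ID were counted (adjusted p = 0.0571 by limma-voom). Leaving out WT 1, WT 2, cr*keap1a/b* 1 or cr*keap1a/b* 2 also ended the call, while the log2 fold change stayed between 1.6 and 2.51 over all 6 such fits. Over all tested genes 0 were called higher and 1 lower without WT 1, and 0 and 4 without WT 2. The calls were 9 and 22 without cr*keap1a/b* 1, and 0 and 1 without cr*keap1a/b* 2. So the loss of the call was not particular to *lect2.1*. Of 17 alternatives 8 called *lect2.1*, with adjusted p between 6.19e-19 and 1.

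The second gene, *leg1.1*, belongs to a pair of neighbouring copies, *leg1.1* and *leg1.2*, of liver-enriched gene 1, which encodes a secreted protein required for liver growth in zebrafish embryos. Levels of *leg1.1* were 3449, 3191 and 2197 CPM in WT pools and 1873, 1010 and 860 CPM in crispants. All crispant pools lay below all WT pools, with means of 2946 ± 661 and 1247 ± 547 CPM (SD, n = 3), a 2.36-fold difference. The gene fell by 1.24 ± 0.22 on the log2 scale (SE; 95% interval -1.69 to -0.79; adjusted p = 1.17e-04 by limma-voom) and by 1.26 within letter a (adjusted p = 4.38e-07 by limma-voom, 0.119 by edgeR). Over all pools DESeq2 called it (adjusted p = 0.0273), and limma-trend and edgeR did not (adjusted p = 0.0578 and 0.234). Leaving out WT 1, WT 2 or cr*keap1a/b* 2 ended the limma-voom call, with log2 fold changes between -1.53 and -1.02 over the 6 such fits. Without any of those pools hardly any of all tested genes were called, as given above for *lect2.1*. Of 17 alternatives 9 called *leg1.1*, with adjusted p between 4.38e-07 and 1.

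The copy *leg1.2* was less abundant and lay in the same order. Its levels were 476, 322 and 215 CPM in WT pools and 173, 97.4 and 71.7 CPM in crispants, without overlap, and its log2 fold change of -1.55 ± 0.60 (SE) did not pass with all pools (adjusted p = 0.322 by limma-voom). Within letter a *leg1.2* fell by 1.6 on the log2 scale (adjusted p = 1.01e-04 by limma-voom, 0.0921 by edgeR). The ratio of *leg1.1* to *leg1.2* counts was 7.25, 9.91 and 10.2 in WT pools and 10.8, 10.4 and 12 in crispants. Reads shared between the copies could move counts from one to the other, so the pair is less certain gene by gene than as a pair.

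**Figure D4:**
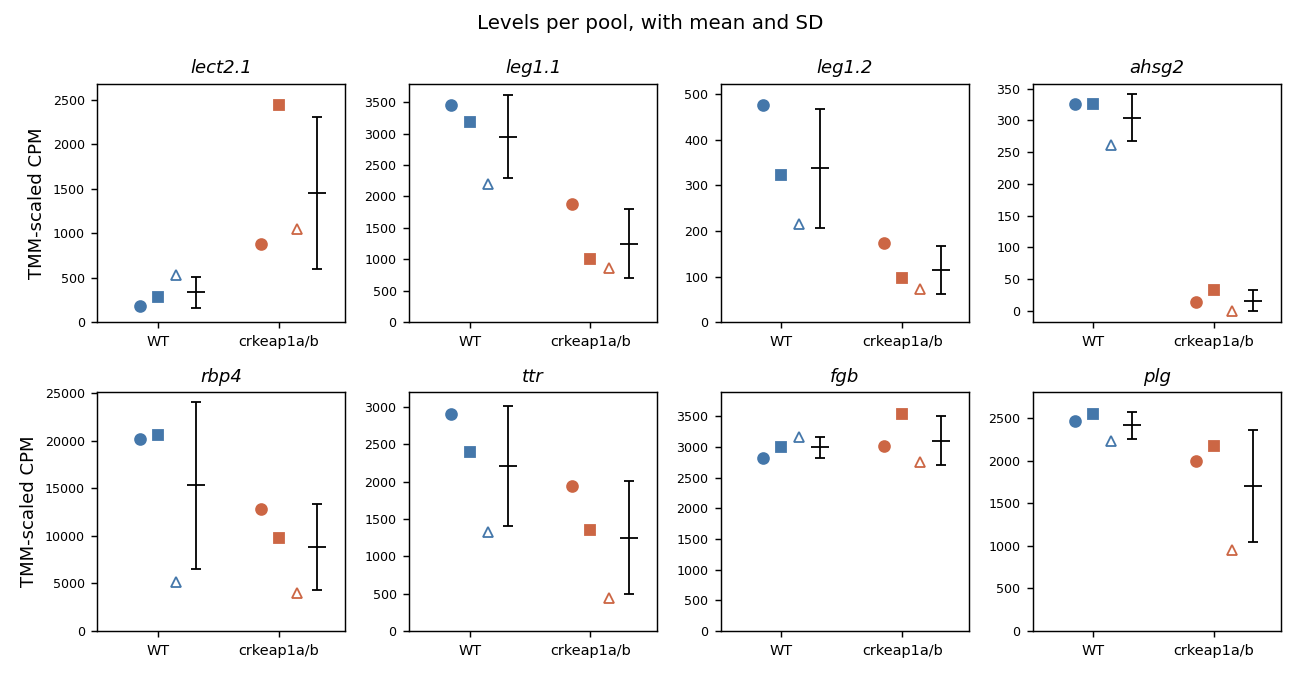
TMM-scaled CPM per pool of 8 genes, with symbols for replicates 1 (circle), 2 (square) and 3 (open triangle, letter b) and with mean and SD bars (n = 3). The groups are separate for *lect2.1*, *leg1.1*, *leg1.2*, *ahsg2* and *plg*, and they overlap for *rbp4*, *ttr* and *fgb*, where WT 3 of *rbp4* stands at 5152 CPM against 20120 and 20573 CPM in WT 1 and 2.

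Retinol-binding protein 4 (*rbp4*), the most abundant of the 46 and the 9th of all tested genes by mean CPM, had its lowest levels in the letter b pools. Its levels were 20120, 20573 and 5152 CPM in WT pools and 12809, 9723 and 3966 CPM in crispants. Within each letter the crispant pools were below WT, while over all pools the groups overlapped. The log2 fold change was -0.25 with all pools (95% interval -0.73 to 0.23; adjusted p = 0.910 by limma-voom), where WT 3 held 63.4% of the WT weight, and -0.70 by the unweighted limma-trend (adjusted p = 0.821). Within letter a *rbp4* fell by 0.85 on the log2 scale (adjusted p = 2.59e-07 by limma-voom), which edgeR did not call in the same pools (adjusted p = 0.194). Single pools moved the estimate: it was -1.41 without WT 3 (adjusted p = 1.41e-10 by limma-voom) and 0.13 without WT 1, and *rbp4* was called under 2 of 17 alternatives, with adjusted p between 1.41e-10 and 1.

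Transthyretin (*ttr*), the carrier of thyroid hormone that in mammals also binds retinol-binding protein in blood, was at 2906, 2395 and 1325 CPM in WT pools and 1944, 1357 and 444 CPM in crispants. It was lower in the crispant pools within each letter, with overlap over all pools. With all pools the log2 fold change was -0.93 ± 0.28 (SE, adjusted p = 0.0926 by limma-voom). Within letter a *ttr* fell by 0.69 on the log2 scale (adjusted p = 0.0325 by limma-voom, 0.388 by edgeR). Vitamin D-binding protein (*gc*) was at 4254, 6153 and 2059 CPM in WT pools and 3637, 3258 and 2420 CPM in crispants, which overlapped. Its log2 fold change was -0.06 (95% interval -0.43 to 0.31), and -0.30 by the unweighted limma-trend. Within letter a both crispant pools lay below both WT pools, with a log2 fold change of -0.54 (adjusted p = 0.0671 by limma-voom). Serum amyloid A (*saa*), an acute-phase protein, was at 0 in 3 of the 6 pools and reached 31.4 CPM in WT 3, and *a1cf* did not exceed 14.9 CPM.

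Beyond these genes, a second list of 82 coagulation, complement, inhibitor and carrier genes, none of them among the 60, had 36 in the table. Limma-voom with all 6 pools called 1 higher and 2 lower, with 13 positive and 23 negative fold changes and a median of -0.37. The higher one was *crp2*, for a C-reactive protein, a pentraxin that is an acute-phase protein in mammals, which rose by 0.91 on the log2 scale (6083, 4707 and 3194 CPM in WT pools, 9783, 9428 and 5520 CPM in crispants; adjusted p = 7.35e-06 by limma-voom). Those lower were *fetub*, for fetuin-B, a relative of the product of *ahsg2*, which fell by 1.46 (18788, 19654 and 13403 CPM against 9512, 5704 and 3712 CPM; adjusted p = 1.97e-14 by limma-voom), and *hamp*, for the iron regulator hepcidin, which fell by 1.42 (1659, 1510 and 673 CPM against 370, 533 and 306 CPM; adjusted p = 0.0280 by limma-voom). For *crp2*, WT 1 lay above cr*keap1a/b* 3, while the groups did not overlap for *fetub* and *hamp*.

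Markers of cell types moved beside these results. Of 16 listed hepatocyte markers, 13 were in the table, and their summed level was 180779 to 284204 CPM in WT pools and 113031 to 196097 CPM in crispants; 5 of the 13, among them *fabp10a* and *apoa1b*, were lower by limma-voom and none was higher, with a median log2 fold change of -0.44. Hepatocyte markers were thus abundant in every pool, whose label is liver. Exocrine pancreas markers, 14 of 18 in the table, summed to 25957 to 41035 CPM in WT pools and 8743 to 12534 CPM in crispants, with 8 lower. Of 10 macrophage and leukocyte markers only *marco* and *spi1b* were in the table, summing to 0 to 42.0 CPM in WT pools and 8.98 to 29.0 CPM in crispants. Erythrocyte markers, 6 of 9 in the table, summed to 416 to 510 CPM and 432 to 1698 CPM. Endothelial markers, 3 of 8, stayed under 69.2 CPM in every pool, and cholangiocyte markers, 3 of 5, summed to 1134 to 1562 CPM and 692 to 1036 CPM. Most of that sum was *anxa4*, at 1281, 1535 and 1116 CPM in WT pools and 979, 837 and 692 CPM in crispants. Over all pools 1 of the 3 fold changes was positive and 2 negative. In letter a 2 were positive and 1 negative, with a median of 1.70 on the log2 scale. Intestine markers, 6 of 8, summed to 556 to 1720 CPM and 460 to 839 CPM, and skeletal muscle markers, 4 of 7, to 324 to 1496 CPM and 136 to 257 CPM; all 4 muscle markers had negative fold changes, with 0 called over all pools and 3 lower within letter a. The part of hepatocyte content, pancreatic tissue or other cells in the levels above was not tested.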

How the data were processed

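Libraries of larval liver RNA (3 WT and 3 cr*keap1a/b* pools of 15 livers) were prepared by the authors with the QuantSeq 3′ kit. Per the submitters' processing notes (FastQC 0.72, cutadapt 1.16, STAR 2.7.5b, featureCounts 1.6.3, limma 3.40.6; danRer11), reads were trimmed, aligned and counted per gene. The authors deposited raw counts, 1 whole number per Entrez gene and pool. The table has 6637 rows; 135 rows without an ID, holding 9.82 to 13.6% of counts, were left out of totals and tests, and 1 ID is on 2 rows. Symbols (6426 IDs) and gene order came from RefSeq for GRCz12tu; no coordinates are given because the build differs. Of the listed genes, 1 was matched by synonym.

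Counts were filtered by filterByExpr, scaled by TMM, and fitted by limma-voom, the method the study names, with group as the only term (R 4.3.3, limma 3.58.1, edgeR 4.0.16) and Benjamini-Hochberg adjustment over all tested genes and a threshold of 0.05. Log2 CPM for limma-trend used a prior count of 2. DESeq2 1.42.0, edgeR, other scalings and filters, pool subsets, replicate blocks and left-out pools were alternatives; inclusion of rows without an ID and edgeR within letter a were chosen after seeing the data. Scripts were tested on simulated data. Floors cover counting error only. The p-values rest on the spread between pools, which limma-voom shares across genes. A gene's own spread therefore entered them little, and hardly at all in the fit of the letter a pools. The study took controls from the same clutch as the crispants, but which pools came from which clutch is not stated.

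The members and lists were chosen with earlier results of these data known. Genes named in full were those called, the 3 of highest mean CPM and the smallest p in each direction per role; other members were named after their values were seen (no overlap between groups, called within letter a, at or near 0, partners of a named gene).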

Additional observations from a re-analysis of the deposited data

How the results depend on the processing

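With all 6 pools limma-voom called 1 of the 46 genes higher and 1 lower. No member was called in either direction by edgeR (4 at an unadjusted p under 0.05), nor by limma-voom with a replicate block by title number (13) or by description code (12). These fits called few of all 6386 tested genes. The calls were 16 higher and 6 lower by edgeR, 1 and 2 with the title block, and 2 and 3 with the code block. Unadjusted p under 0.05 was reached by 253, 412 and 389 genes. Under the block by title number the median over all tested genes was 0.29, and deviations of same-numbered pools correlated by 0.04, 0.01 and 0.07. The main fit took no numbers as pairs because the study states no block. The replicate 3 pools also share the letter b. RLE factors (7 at an unadjusted p under 0.05) and rows without an ID (12) each gave 0 higher and 1 lower by limma-voom, and RLE moved the calls over all genes from 38 higher and 38 lower to 9 and 27. The letter a pools gave 3 higher and 6 lower. Leaving out 1 pool gave 0 to 3 higher and 0 to 4 lower, beside 0 to 125 higher and 1 to 71 lower over all tested genes. Scaling by library size only moved the median of all genes by 0.21 on the log2 scale. The difference in the share of counts was -0.60 percentage points within letter a and -0.73 to 0.01 without 1 pool, and it exceeded the replicate spread within letter a and without WT 3. Directions reversed for genes near 0: *fgb* was -0.021 with RLE factors and -0.036 or -0.015 with the blocks (-0.027 to 0.13 without 1 pool); *fga* was 0.10 by library size and 0.24 or 0.25 within letter a by limma-voom or edgeR (-0.29 to 0.16); *gc* was 0.061 by library size (-0.75 to 0.23). The log2 fold change of *c3a.3* was -0.21 by edgeR and by DESeq2, -0.079 by limma-trend, -0.46 and -0.53 within letter a by limma-voom and edgeR, and -0.084 and -0.063 with the blocks (-0.44 to 0.45 without 1 pool). Without 1 pool, *f7* ranged from -0.085 to 1.35, *c9* from -0.17 to 0.019 and *rbp4* from -1.41 to 0.13. The causes were not tested. Of the 46 members, 6 had under 10 counts in some pool, *serpind1* and *ahsg2* among them.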
